A study of Mus musculus with 36 samples.

Results

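The genes described here are 33 genes of peroxisome biogenesis and peroxisomal oxidation, measured in mouse liver. They were chosen by symbol: a gene is a member when a probe other than a control carries its listed name in the array files, and where a gene has several probes the one brightest on average (log2 processed signal over 36 arrays) stands for it. All 33 were found among the 37074 genes on the array, and all 33 were among the 24101 genes kept for testing. Livers came from male C57Bl/6J mice of 2 genotypes. AAKO mice lack ATGL, the adipose triglyceride lipase that starts fat breakdown, in white adipose tissue, and CTRL mice are their controls. Each genotype was fed ad libitum, fasted for 24 h, or fed and gavaged once with CL316243 at 3 mg/kg, which activates beta 3 adrenergic receptors on adipocytes and so their fat breakdown. This gave 6 groups of 6 arrays: CTRL fed, AAKO fed, CTRL fasted, AAKO fasted, CTRL CL316243 and AAKO CL316243. Gavage took place at Zeitgeber time 10 and livers were collected at Zeitgeber time 16, after lights off. Labels assign both fed groups to experiment 2 and the remaining groups to experiment 1, so a comparison with fed mice cannot be told apart from a comparison of experiments. Since no gavage is recorded for the other groups, effects of the drug and of gavage or vehicle cannot be told apart. The promoter or Cre line behind the deletion, the genotype of the controls and the ages are not given in the labels.

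Peroxisomes are small organelles, abundant in hepatocytes, that shorten fatty acids too long or too branched for mitochondria and that make and destroy hydrogen peroxide. Acyl-CoA enters through ABC transporters, an oxidase makes the first double bond and releases hydrogen peroxide, a bifunctional enzyme hydrates and dehydrogenates the product, a thiolase cleaves it, and catalase removes the peroxide. Peroxins, the products of Pex genes, build the organelle: some insert its membrane proteins, others carry enzymes through the membrane, and the PEX11 proteins help it elongate and divide. In rodent liver many of these genes are textbook targets of PPARα, a nuclear receptor that fatty acids activate.

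The start regions of 4 members are shown because their RNA followed different courses: Ehhadh (the L-bifunctional enzyme) and the paralogous thiolase genes Acaa1b and Acaa1a differed by genotype in fasted liver, whereas Pxmp4 (a peroxisomal membrane protein) rose on fasting in both genotypes. Each window is the 250 bases before and 50 after the RefSeq start of the gene on GRCm38.p6, written from 5′ to 3′ on the gene's strand. Capitals mark CCAAT and GGGCGG on either strand. The windows are Ehhadh at chr16:21787785-21788084, minus strand, Acaa1b at chr9:119157044-119157343, minus strand, Acaa1a at chr9:119341044-119341343, plus strand, and Pxmp4 at chr2:154603624-154603923, minus strand.
Ehhadh: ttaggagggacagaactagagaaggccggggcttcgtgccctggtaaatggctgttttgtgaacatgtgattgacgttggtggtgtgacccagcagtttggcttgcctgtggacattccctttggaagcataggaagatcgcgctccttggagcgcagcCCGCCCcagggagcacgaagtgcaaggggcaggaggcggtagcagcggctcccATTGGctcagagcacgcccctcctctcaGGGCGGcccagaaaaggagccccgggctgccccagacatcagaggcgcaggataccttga
Acaa1b: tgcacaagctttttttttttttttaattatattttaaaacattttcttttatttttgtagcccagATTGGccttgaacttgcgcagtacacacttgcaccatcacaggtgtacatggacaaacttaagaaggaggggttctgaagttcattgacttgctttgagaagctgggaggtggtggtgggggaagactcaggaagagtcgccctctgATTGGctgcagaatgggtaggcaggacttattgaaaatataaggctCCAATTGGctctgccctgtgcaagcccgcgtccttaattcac
Acaa1a: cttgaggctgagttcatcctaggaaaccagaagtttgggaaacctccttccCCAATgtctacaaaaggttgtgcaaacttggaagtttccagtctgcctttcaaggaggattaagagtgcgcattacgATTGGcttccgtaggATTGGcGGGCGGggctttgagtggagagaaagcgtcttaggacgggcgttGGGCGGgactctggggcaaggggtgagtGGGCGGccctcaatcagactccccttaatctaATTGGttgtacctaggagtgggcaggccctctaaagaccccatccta
Pxmp4: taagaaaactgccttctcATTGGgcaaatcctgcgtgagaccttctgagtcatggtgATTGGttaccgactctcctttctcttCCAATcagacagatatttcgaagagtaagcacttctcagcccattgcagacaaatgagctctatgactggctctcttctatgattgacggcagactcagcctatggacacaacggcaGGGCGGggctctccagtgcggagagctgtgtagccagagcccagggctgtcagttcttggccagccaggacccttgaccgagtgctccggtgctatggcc
Of the 33 members, 27 had such a window in the RefSeq table. CCAAT was found in the windows of 13 members, among them all 4 shown, and in 37.4% of all 32851 windows. Matches on opposite strands can overlap, as in the run CCAATTGG of the Acaa1b window. GGGCGG was found in the windows of 21 members and in 35.7% of all windows; the Ehhadh window holds 2 matches and the Acaa1a window 3, while the Acaa1b window holds none. AGGTCA repeated in the same direction after 1 base of any kind, the idealised site of PPARα with its partner RXR, was found on neither strand in any member's window and in 0.0396% of all windows. Since only 13 of 32851 windows hold this exact run, its absence from the windows of 27 members says nothing about PPARα sites in these genes. The single copy AGGTCA was found on either strand for 4 members (Cat, Pex11g, Phyh and Scp2) and in 16.3% of all windows.

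Array probes are 60-base oligonucleotides. The probe for Ech1, a dienoyl-CoA isomerase that repositions double bonds, is shown as an example because its mm9 position covers 196 bases, more than its length, so that it reads 2 adjoining exons (chr7:29616863-29617058, plus strand). The other 32 member probes each lie in a single stretch, and the files do not say whether they lie in coding sequence or UTR.
Ech1 probe: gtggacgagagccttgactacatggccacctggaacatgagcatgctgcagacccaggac

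Levels are log2 signal minus the log2 of the array's 75th percentile, so 0 is the brightness of that percentile. Probes differ in brightness, so levels are compared between arrays for the same gene and not between genes. Between 33128 and 37200 probes were well above background on each array. All 7 hepatocyte markers were well above background on every array, and their summed linear level ran from 4331 to 5406. All pairs of arrays correlated at 0.945 or more over the genes tested. CTRL fasted replicate 2 stood apart from its group, at 80.9 on the first principal component against 16.7 to 28.9 for the others and 102 to 110 for AAKO fasted arrays, and counts are given with and without it. The deletion is in adipose tissue, so the liver's own signal for the lipase gene does not check the genotype labels. The labels do not say in words that each array is a separate mouse, so p-values measure the spread between these samples, which may in part be technical. In whole liver, fewer cells of a type and less RNA per cell cannot be told apart.

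Across the groups the set was highest in fasted controls and lowest in fasted AAKO livers. The mean level over the 33 members was 4.91 ± 0.0604 in CTRL fed, 4.85 ± 0.0641 in AAKO fed, 5.30 ± 0.109 in CTRL fasted, 4.53 ± 0.108 in AAKO fasted, 5.11 ± 0.0529 in CTRL CL316243 and 4.71 ± 0.0728 in AAKO CL316243 (SD over 6 arrays). The array means ran from 5.14 to 5.40 in CTRL fasted and from 4.40 to 4.72 in AAKO fasted, so these groups did not overlap. Of the 33 members, 17 had their highest group mean in CTRL fasted and 21 had their lowest in AAKO fasted. Group means of Ehhadh spanned 4.03 on the log2 scale, the widest measured in the set, and those of Pex11g (a PEX11 family member) spanned 0.33, the narrowest.

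**Figure D1:**
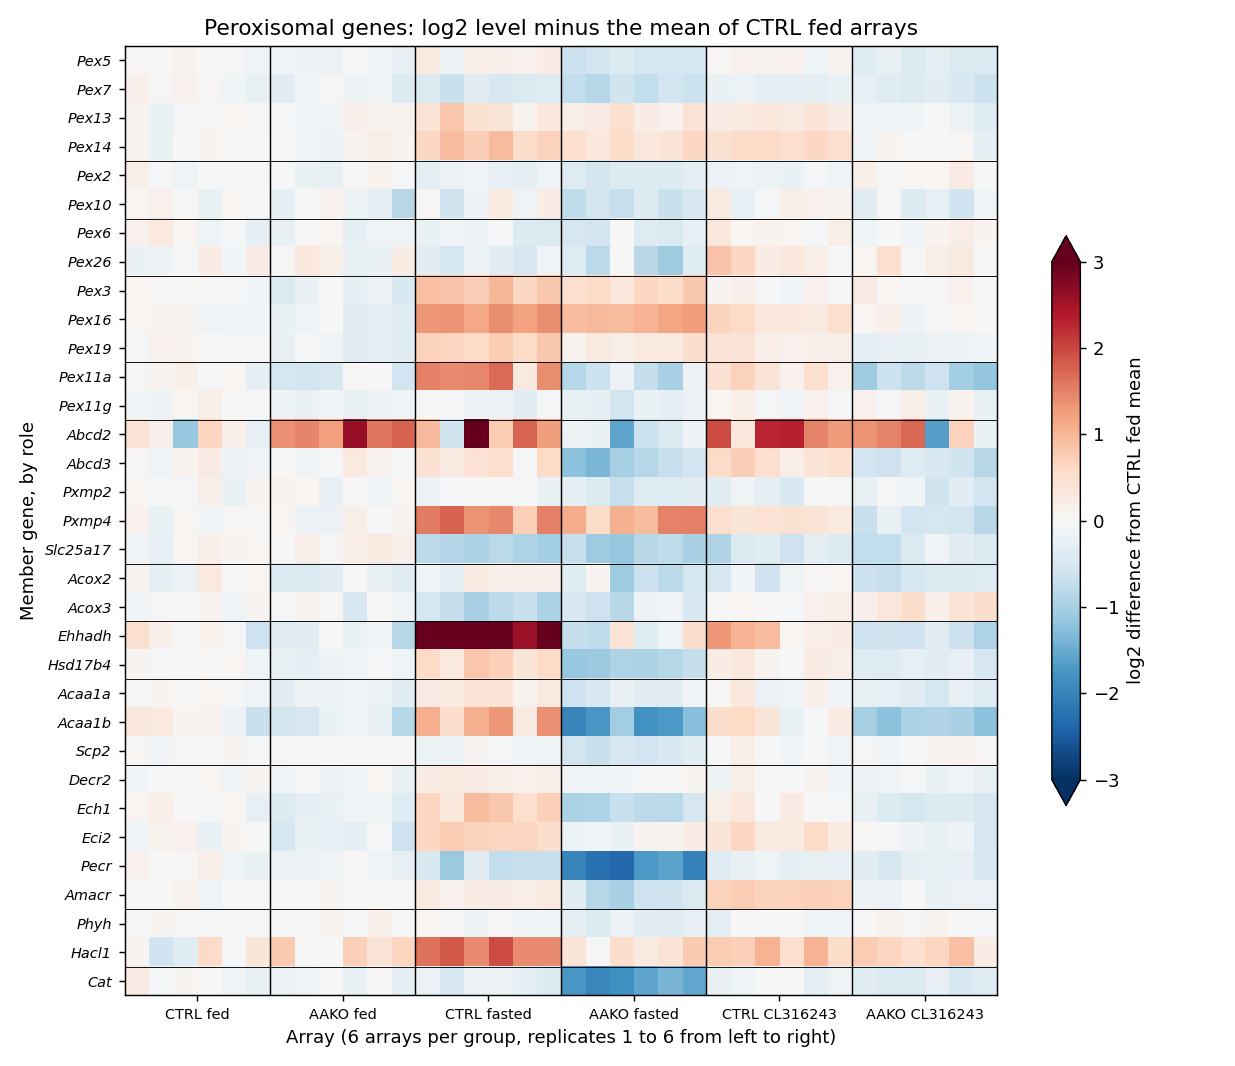
Heat map of the 33 members (rows, by role) on 36 arrays (columns, by group); colour is the log2 level minus the mean of the 6 CTRL fed arrays, with values beyond 3 drawn at the end of the scale. Ehhadh is darkest in CTRL fasted, where its group mean is 7.39 against 3.99 in CTRL fed, and Cat and Pecr are bluest in AAKO fasted.

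In fed mice the genotypes gave no called difference among the members. A gene is called at an adjusted p under 0.05 in the limma fit over all genes with Benjamini-Hochberg adjustment. None of 33 members was called, against 0.0788% of all genes tested (0.0415% higher and 0.0373% lower), and 12 members (2 higher and 10 lower in AAKO) had an unadjusted p under 0.05. The median log2 fold change was -0.12, beside -0.00 over all genes. Abcd2, a transporter of very-long-chain acyl-CoA that is dim in liver, was clear of background in all 6 AAKO fed livers but only 1 of the 6 CTRL fed ones. Its measured log2 fold change was 1.67 ± 0.491 (adjusted p = 0.316), whose size is uncertain because the CTRL fed arrays lie mostly at background. Its fed groups did not overlap, which was true of 1 member and of 0.693% of all genes.

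In fasted mice most members were lower in AAKO than in CTRL livers. The test called 27 of 33 members, beside 49.2% of all genes tested. Of these, 26 were lower (78.8% of the members), beside 27.3% of all genes, and 1 was higher, beside 21.9%. Their median log2 fold change was -0.43, beside -0.03 over all genes, and 19 members had groups that did not overlap, as did 21.2% of all genes. Without CTRL fasted replicate 2 the counts were again 26 lower and 1 higher. Arrays were washed in batches that the labels number, and each group is spread over them. Within wash batch 1 the counts were 20 lower and 0 higher, and within wash batch 2 they were 24 lower and 1 higher. Markers of other cell types moved in the same comparison, and every marker listed was well above background on at least 1 array. Neutrophil markers were called higher in AAKO fasted livers for 3 of 5 genes, with a summed linear level of 10.7 to 124 against 2.39 to 79.9 in CTRL fasted. Endothelial markers were called higher for 3 of 6, with a sum of 49.4 to 63.1 against 28.7 to 62. Stellate cell and fibroblast markers were called higher for 2 of 6, with a sum of 121 to 162 against 95.3 to 120. Cholangiocyte markers were called lower for 2 of 5 and lymphocyte markers for 1 of 5, with sums of 4.14 to 10.8 against 5.38 to 8.67 and of 2.69 to 3.51 against 3.18 to 4.38. Of 7 hepatocyte markers 3 were called higher and 3 lower, of 5 adipocyte markers 1 each way, and of 7 Kupffer cell and macrophage markers none. The part of any cell type in the members' differences was not tested, here or in the comparisons that follow.

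**Figure D2:**
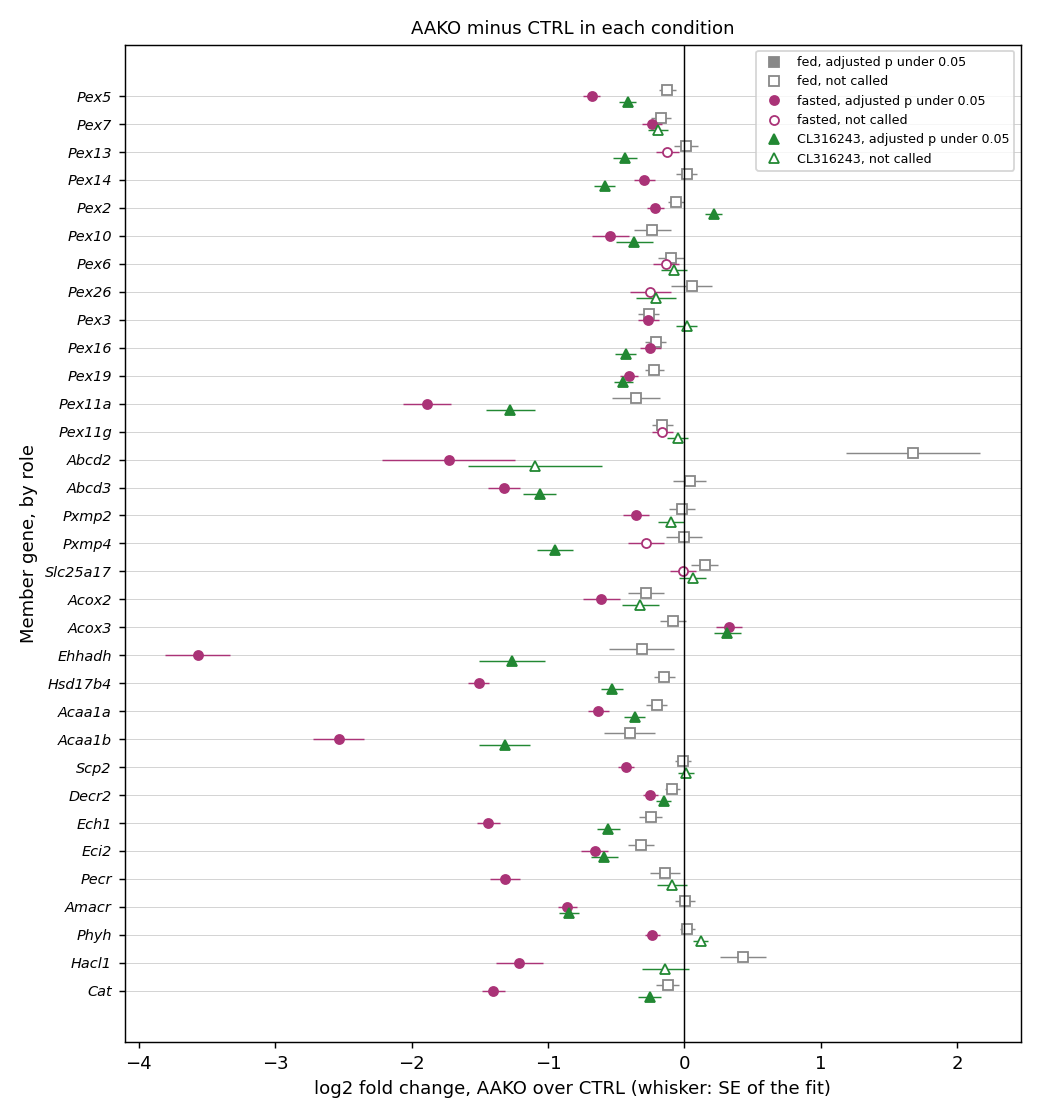
Log2 fold change of AAKO over CTRL for each member in fed, fasted and CL316243-treated mice, with the standard error of the fit as whiskers; filled points are called and open points are not. Fasted points lie left of 0 for 32 of 33 members, with Ehhadh at -3.57 and Acox3 the exception at 0.33.

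The bifunctional enzymes catalyse the middle steps of the cycle, and both were lower in fasted AAKO livers. Ehhadh levels in CTRL livers, given as the lowest, median and highest of 6 arrays, were 3.37, 4.02 and 4.48 fed, 6.59, 7.39 and 7.90 fasted, and 4.06, 4.57 and 5.30 after CL316243. Ehhadh levels in AAKO livers were 3.14, 3.72 and 3.98, 3.23, 3.75 and 4.52, and 3.06, 3.37 and 3.64 in the same order. Every CTRL fasted array lay above every array of the other groups. In fasted mice the AAKO over CTRL log2 fold change was -3.57 ± 0.239 (11.9-fold lower, adjusted p = 2.97e-13), the largest in size among members measured in both groups, and after CL316243 it was -1.27 ± 0.24 (2.4-fold lower, adjusted p = 0.000174). Hsd17b4 levels in CTRL livers, given as the lowest, median and highest of 6 arrays, were 6.63, 6.77 and 6.84 fed, 7.06, 7.35 and 7.58 fasted, and 6.78, 6.96 and 7.08 after CL316243. Hsd17b4 levels in AAKO livers were 6.50, 6.62 and 6.74, 5.62, 5.82 and 6.05, and 6.26, 6.42 and 6.51 in the same order. Hsd17b4 encodes the D-bifunctional enzyme, which also handles branched chains and bile acid precursors, and its AAKO fasted arrays lay below all others. Its log2 fold changes of AAKO over CTRL were -1.51 ± 0.0773 (2.85-fold lower, adjusted p = 1.24e-15) in fasted mice and -0.53 ± 0.0776 (1.44-fold lower, adjusted p = 5.25e-06) after CL316243.

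The thiolases release acetyl-CoA in the last step. Acaa1b levels in CTRL livers, given as the lowest, median and highest of 6 arrays, were 5.64, 6.40 and 6.65 fed, 6.57, 7.39 and 7.68 fasted, and 6.10, 6.62 and 6.91 after CL316243. Acaa1b levels in AAKO livers were 5.46, 5.95 and 6.22, 4.32, 4.56 and 5.26, and 5.08, 5.32 and 5.41 in the same order. The fasted genotypes did not overlap, nor did the CL316243 groups. Acaa1b gave -2.53 ± 0.187 (5.79-fold lower, adjusted p = 2.34e-12) in fasted AAKO mice and -1.32 ± 0.188 (2.49-fold lower, adjusted p = 3.63e-06) after CL316243. Its paralog Acaa1a, which is closely similar in sequence so that probes may read both, showed smaller values. Acaa1a levels in CTRL livers, given as the lowest, median and highest of 6 arrays, were 7.68, 7.81 and 7.87 fed, 7.90, 8.06 and 8.21 fasted, and 7.61, 7.77 and 8.10 after CL316243. Acaa1a levels in AAKO livers were 7.46, 7.63 and 7.69, 7.18, 7.46 and 7.70, and 7.26, 7.50 and 7.56 in the same order. Acaa1a arrays of the fasted genotypes also did not overlap, with a log2 fold change of -0.63 ± 0.0757 (1.55-fold lower, adjusted p = 3.14e-08) in AAKO. A second Acaa1a probe, dimmer than the first, gave -1.66 for the same comparison, so the size for Acaa1a depends on the probe. Scp2, whose longer product is a thiolase for branched chains, was lower in fasted AAKO livers, at -0.43 ± 0.0575 (1.35-fold lower, adjusted p = 2.18e-07); after CL316243 its value was 0.01 ± 0.0577 and was not called.

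Entry of acyl-CoA depends on ABC transporters of the peroxisomal membrane. Abcd3 levels in CTRL livers, given as the lowest, median and highest of 6 arrays, were 7.09, 7.20 and 7.47 fed, 7.21, 7.68 and 7.83 fasted, and 7.44, 7.73 and 7.98 after CL316243. Abcd3 levels in AAKO livers were 7.14, 7.21 and 7.53, 5.86, 6.31 and 6.67, and 6.41, 6.65 and 6.84 in the same order. Abcd3, the main such transporter in liver, had AAKO fasted and AAKO CL316243 arrays that all lay below the CTRL arrays of every condition. Its log2 fold change of AAKO over CTRL was -1.32 ± 0.118 (2.5-fold lower, adjusted p = 1.1e-10) in fasted mice and -1.06 ± 0.119 (2.09-fold lower, adjusted p = 7.08e-08) after CL316243. Abcd2 levels in CTRL livers, given as the lowest, median and highest of 6 arrays, were -6.52, -5.23 and -4.75 fed, -5.98, -4.28 and -2.29 fasted, and -5.07, -3.66 and -3.05 after CL316243. Abcd2 levels in AAKO livers were -4.17, -3.85 and -2.77, -6.97, -5.71 and -5.53, and -7.04, -4.36 and -3.68 in the same order. Abcd2 was near background: it was well above it on 1 of 6 CTRL fed, 6 AAKO fed, 5 CTRL fasted, 0 AAKO fasted, 5 CTRL CL316243 and 3 AAKO CL316243 arrays, and it was kept for testing through the groups where it was brighter. Against the detection floor, the mean of CTRL fasted was at least 2.10-fold above that of AAKO fasted (adjusted p = 0.0039), with measured means of -4.19 and -5.91. This bound takes no account of the spread between arrays, and the groups overlapped (CTRL fasted lowest -5.98, AAKO fasted highest -5.53). Over the alternatives the log2 fold change of AAKO over CTRL ran from -2.67 to -0.29. Within wash batch 2 its call was lost (-0.79, adjusted p = 0.381). The membrane channel Pxmp2 was lower in fasted AAKO mice, at -0.36 ± 0.095, and was not called after CL316243 (-0.10 ± 0.0955), and Slc25a17, the carrier of coenzyme A and nucleotides across that membrane, was called in neither (-0.01 ± 0.0973 and 0.06 ± 0.0978). For Abcd2, the floor of an array is the lowest signal among its probes well above background, or the probe's own signal where that is higher.

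Auxiliary enzymes prepare unsaturated and branched chains, and all 5 members of this role were called lower in fasted AAKO livers, a call made for 27.3% of all genes. Ech1 levels in CTRL livers, given as the lowest, median and highest of 6 arrays, were 5.79, 6.07 and 6.24 fed, 6.39, 6.73 and 6.99 fasted, and 6.01, 6.14 and 6.39 after CL316243. Ech1 levels in AAKO livers were 5.64, 5.80 and 5.95, 5.11, 5.24 and 5.54, and 5.53, 5.63 and 5.83 in the same order. Ech1, whose probe is printed above, had fasted groups that did not overlap. It gave -1.44 ± 0.0854 (2.71-fold lower, adjusted p = 2.29e-14) in fasted AAKO mice and -0.56 ± 0.0858 (1.47-fold lower, adjusted p = 1.12e-05) after CL316243. Amacr levels in CTRL livers, given as the lowest, median and highest of 6 arrays, were 6.16, 6.27 and 6.38 fed, 6.40, 6.50 and 6.56 fasted, and 6.95, 6.96 and 7.04 after CL316243. Amacr levels in AAKO livers were 6.22, 6.28 and 6.36, 5.29, 5.66 and 5.96, and 6.07, 6.10 and 6.26 in the same order. Amacr, the racemase that turns branched-chain acyl-CoA and bile acid intermediates into the form the oxidases accept, had its 6 CTRL CL316243 arrays above all others and its AAKO fasted arrays below all others. Its AAKO over CTRL log2 fold change was -0.86 ± 0.0714 (1.81-fold lower, adjusted p = 2.53e-11) in fasted AAKO mice and -0.85 ± 0.0717 (1.8-fold lower, adjusted p = 5.81e-10) after CL316243. Pecr levels in CTRL livers, given as the lowest, median and highest of 6 arrays, were 7.09, 7.32 and 7.43 fed, 6.17, 6.59 and 6.94 fasted, and 6.90, 7.05 and 7.16 after CL316243. Pecr levels in AAKO livers were 7.04, 7.13 and 7.33, 4.93, 5.27 and 5.68, and 6.80, 6.98 and 7.06 in the same order. Pecr, a reductase of trans-enoyl-CoA, was lower in fasted AAKO livers, at -1.32 ± 0.109 (2.49-fold lower, adjusted p = 2.27e-11), while after CL316243 its value was -0.09 ± 0.11 and was not called. Eci2 (an enoyl-CoA isomerase) and Decr2 (a dienoyl-CoA reductase) were lower in fasted AAKO mice, at -0.66 ± 0.097 and -0.25 ± 0.0549 log2 units.

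Alpha oxidation removes a single carbon from chains with a methyl branch at the beta position, such as phytanic acid. Hacl1 levels in CTRL livers, given as the lowest, median and highest of 6 arrays, were 5.03, 5.64 and 6.20 fed, 7.03, 7.15 and 7.58 fasted, and 6.13, 6.36 and 6.67 after CL316243. Hacl1 levels in AAKO livers were 5.63, 6.15 and 6.40, 5.64, 6.02 and 6.41, and 5.85, 6.26 and 6.52 in the same order. Hacl1, the lyase of this pathway, had CTRL fasted arrays above all others. AAKO over CTRL was -1.21 ± 0.17 (2.31-fold lower, adjusted p = 5.29e-07) in fasted mice, and -0.14 ± 0.171 after CL316243, not called. Phyh, the phytanoyl-CoA hydroxylase, was lower in fasted AAKO mice, at -0.24 ± 0.0542 (1.18-fold lower, adjusted p = 0.000495).

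Catalase, which degrades hydrogen peroxide, was low in AAKO fasted livers. Cat levels in CTRL livers, given as the lowest, median and highest of 6 arrays, were 7.55, 7.76 and 8.02 fed, 7.27, 7.55 and 7.62 fasted, and 7.48, 7.65 and 7.79 after CL316243. Cat levels in AAKO livers were 7.49, 7.63 and 7.77, 5.81, 6.10 and 6.37, and 7.32, 7.37 and 7.53 in the same order. All 6 AAKO fasted arrays lay below every other array. Its AAKO over CTRL log2 fold change was -1.40 ± 0.0845 (2.64-fold lower, adjusted p = 3.08e-14) in fasted mice and -0.25 ± 0.0849 (1.19-fold lower, adjusted p = 0.0267) after CL316243; the latter lost its call when AAKO CL316243 replicate 3 or 5 or CTRL CL316243 replicate 3 or 4 was left out (adjusted p 0.0511 to 0.0761).

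An oxidase takes the first step of each round. Acox2, the oxidase of branched chains and bile acid precursors, was lower in fasted AAKO mice, at -0.61 ± 0.135 (1.53-fold lower, adjusted p = 0.000338). Acox3, another branched-chain oxidase, was called higher on its brightest probe, by 0.33 ± 0.097 in fasted mice and 0.31 ± 0.0975 after CL316243. Its 4 probes disagreed in fasted mice, at 0.33, -0.31, 0.75 and 0.94 from brightest to dimmest, so no direction is given for the gene.

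Peroxins other than Pex11a had AAKO over CTRL log2 fold changes between -0.68 (Pex5) and -0.13 (Pex13) in fasted mice. Pex11a levels in CTRL livers, given as the lowest, median and highest of 6 arrays, were 6.14, 6.46 and 6.57 fed, 6.71, 7.85 and 8.12 fasted, and 6.54, 6.85 and 7.11 after CL316243. Pex11a levels in AAKO livers were 5.84, 5.91 and 6.44, 5.44, 5.74 and 6.25, and 5.25, 5.52 and 5.79 in the same order. Pex11a promotes elongation and division of peroxisomes, and its AAKO CL316243 arrays lay below all CTRL arrays. AAKO over CTRL was -1.89 ± 0.177 (3.7-fold lower, adjusted p = 2.78e-10) in fasted mice and -1.28 ± 0.177 (2.42-fold lower, adjusted p = 2.48e-06) after CL316243, and CTRL fasted replicate 5 was far below its group at 6.71, the next being 7.82. Pex11g, of the same family, was not called in either state (-0.16 ± 0.0758 and -0.05 ± 0.0761). Pex5, the receptor that imports enzymes with the common carboxy-terminal signal, was lower, at -0.68 ± 0.0624 (1.6-fold lower, adjusted p = 1.84e-10) in fasted AAKO mice and -0.41 ± 0.0627 (1.33-fold lower, adjusted p = 8.58e-06) after CL316243. Pex7, the receptor for the amino-terminal signal that the thiolases of Acaa1a and Acaa1b carry, was lower in fasted AAKO mice, at -0.24 ± 0.0738. Pex14, a docking protein of the import pore, was lower, at -0.29 ± 0.0768 in fasted and -0.59 ± 0.0771 in CL316243-treated AAKO mice. Pex10, a ring ligase that marks the receptor for recycling, was lower, at -0.54 ± 0.134 in fasted AAKO mice. Pex6 and Pex26, the ATPase and its anchor that pull the receptor out, were not called, at -0.14 ± 0.0955 and -0.25 ± 0.148. Among the 3 genes of membrane assembly, Pex3, Pex16 and Pex19 were lower in fasted AAKO mice, at -0.26 ± 0.0768, -0.25 ± 0.0758 and -0.40 ± 0.0669.

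After CL316243 most called members were again lower in AAKO livers. The test called 20 of 33 members, beside 24.6% of all genes. It called 18 lower (54.5% of the members), beside 11.6% of all genes, and 2 higher (Acox3 and Pex2), beside 13% of all genes. The median log2 fold change of the members was -0.36, beside 0.03 over all genes, and 15 members had groups that did not overlap, as did 11.3% of all genes. Of the 26 members lower in fasted AAKO mice, 16 were also called lower after CL316243, 9 were not called, and Pex2, a ring ligase, was called higher. Among the 16, the CL316243 calls for Decr2 and Pex10 were lost when any of several single arrays was left out (adjusted p up to 0.1286 and 0.1225). Pex2 is uncertain, since its second probe was higher in fasted AAKO mice (0.18 against -0.21 for the first). The higher call for Acox3 after CL316243 rests on its brightest probe. Its 4 probes gave 0.31, -0.16, 0.00 and -0.01 from brightest to dimmest, and their average was not called (0.036, adjusted p = 0.825). Pxmp4 and Pex13, a docking protein, were lower after CL316243 (-0.95 ± 0.133 and -0.44 ± 0.0862) and not called in fasted mice. Second probes of these genes gave 0.02 and 0.16 after CL316243, so their difference rests on the brightest probe. Within wash batches 1 and 2, 14 and 12 members were called, all lower. Of the cell markers, 2 of 6 endothelial and 3 of 7 hepatocyte genes were called higher in AAKO and 1 of 5 cholangiocyte genes lower; the endothelial sum was 35.7 to 52.8 against 23.8 to 44.7, the hepatocyte sum 4.55e+03 to 5.19e+03 against 4.37e+03 to 5.02e+03 and the cholangiocyte sum 6.34 to 12.1 against 9.45 to 16.3.

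In control livers more members were called higher than lower on fasting. Compared with CTRL fed, 24 of 33 members were called in CTRL fasted, beside 43.8% of all genes. Of these, 18 (54.5% of the members) were higher, beside 19.7% of all genes, and 6 were lower, beside 24.1%. The median log2 fold change was 0.23 against -0.05 over all genes, and 19 members did not overlap, as did 22.8% of all genes. Without CTRL fasted replicate 2 the counts were 19 higher and 6 lower, and they were 14 higher and 4 lower within wash batch 1, and 16 higher and 5 lower within wash batch 2. By role, the genes called higher were both bifunctional enzymes, 2 of 3 thiolases, 4 of 5 auxiliary enzymes, 3 of 5 transporters and membrane proteins, all 3 membrane assembly genes, 2 of 4 import receptors and docking proteins, 1 of 2 division genes and 1 of 2 alpha oxidation genes. No oxidase, ring ligase, receptor recycling gene or catalase was called higher. Kupffer cell and macrophage markers were called lower for 3 of 7 and cholangiocyte markers for 3 of 5, with sums of 26.7 to 93.3 against 39.9 to 91.1 and of 5.38 to 8.67 against 8.27 to 18.3 in CTRL fed. Adipocyte markers, of which 1 of 5 was called higher and 2 lower, summed to 9.31 to 26.7 against 95.2 to 375. That sum mostly follows Car3, whose mean level over all arrays was 6.64, beside -0.32 or lower for the other adipocyte markers. It is therefore not a measure of the adipocyte list as a whole. Ehhadh rose most, by 3.40 ± 0.239 (10.6-fold higher, adjusted p = 8.19e-13). Hacl1 rose by 1.61 ± 0.17, Pxmp4 by 1.39 ± 0.133, Pex16 by 1.30 ± 0.0758, Pex11a by 1.29 ± 0.177, Acaa1b by 0.94 ± 0.187 and Pex3 by 0.82 ± 0.0768. The call for Abcd2 (1.20 ± 0.491, adjusted p = 0.046) was lost when any of 5 CTRL fasted arrays (replicates 1, 3, 4, 5 and 6) or any of 4 CTRL fed arrays (replicates 2, 3, 5 and 6) was left out, with adjusted p from 0.0506 to 0.165. Slc25a17 fell by 0.90 ± 0.0973 on the log2 scale, and Acox3, Pecr, Pex7, Cat and Pex2 were also called lower. With all probes of a gene averaged, Pex2 turned to 0.025 and Acox3 lost its call (-0.066, adjusted p = 0.59). The 4 Acox3 probes gave -0.77, -0.19, 0.43 and 0.26 from brightest to dimmest.

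In AAKO mice more members fell than rose on fasting. Compared with AAKO fed, 26 of 33 members were called, beside 63.6% of all genes. Of these, 19 (57.6% of the members) were lower, beside 36.1% of all genes, and 7 were higher, beside 27.5%. The counts were 6 higher and 16 lower within wash batch 1, and 6 higher and 17 lower within wash batch 2. Among cell markers, 4 of 7 of Kupffer cells and macrophages were called lower (summed level 16.2 to 89.7 against 64.8 to 111 in AAKO fed). Neutrophil markers were called higher for 3 of 5 and lower for 1 (10.7 to 124 against 2.77 to 46.9), and endothelial markers higher for 3 of 6 and lower for 2 (49.4 to 63.1 against 56.2 to 68.1). Cholangiocyte and lymphocyte markers were each called lower for 3 of 5 (4.14 to 10.8 against 8.12 to 25.5, and 2.69 to 3.51 against 3.84 to 4.9). Stellate cell and fibroblast markers, of which 2 of 6 were called higher and 1 lower, summed to 121 to 162 against 76.7 to 94.5. Adipocyte markers, of which 1 of 5 was called higher and 2 lower, summed to 16.6 to 45.5 against 105 to 263, again mostly following Car3. The median was -0.35, beside -0.10 over all genes, and 20 members did not overlap, as did 42.7% of all genes. The genes called higher in both genotypes were Pex3, Pex13, Pex14, Pex16, Pex19, Eci2 and Pxmp4. All 3 membrane assembly genes are among them: Pex3 acts as the docking site for Pex19, the carrier of newly made membrane proteins, and Pex16 recruits Pex3. Pex16 levels in CTRL livers, given as the lowest, median and highest of 6 arrays, were 3.90, 3.97 and 4.06 fed, 5.14, 5.30 and 5.38 fasted, and 4.24, 4.38 and 4.65 after CL316243. Pex16 levels in AAKO livers were 3.63, 3.74 and 3.96, 4.89, 4.98 and 5.23, and 3.83, 3.99 and 4.14 in the same order. Both fasted groups lay above all other arrays. Pex16 rose by 1.26 ± 0.0758 (2.4-fold higher, adjusted p = 3.38e-15) in AAKO mice and by 1.30 ± 0.0758 in controls, and the difference between the responses was -0.04 ± 0.107 (adjusted p = 0.822). Pxmp4 levels in CTRL livers, given as the lowest, median and highest of 6 arrays, were 4.06, 4.29 and 4.40 fed, 4.98, 5.73 and 6.03 fasted, and 4.56, 4.66 and 4.73 after CL316243. Pxmp4 levels in AAKO livers were 4.07, 4.29 and 4.44, 4.80, 5.34 and 5.76, and 3.43, 3.69 and 4.02 in the same order. Pxmp4 fasted arrays of both genotypes lay above all fed and CL316243 arrays. It rose by 1.11 ± 0.133 in AAKO mice, with a difference between responses of -0.28 ± 0.188 (adjusted p = 0.26). These p-values do not show that the genotypes respond alike.

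**Figure D3:**
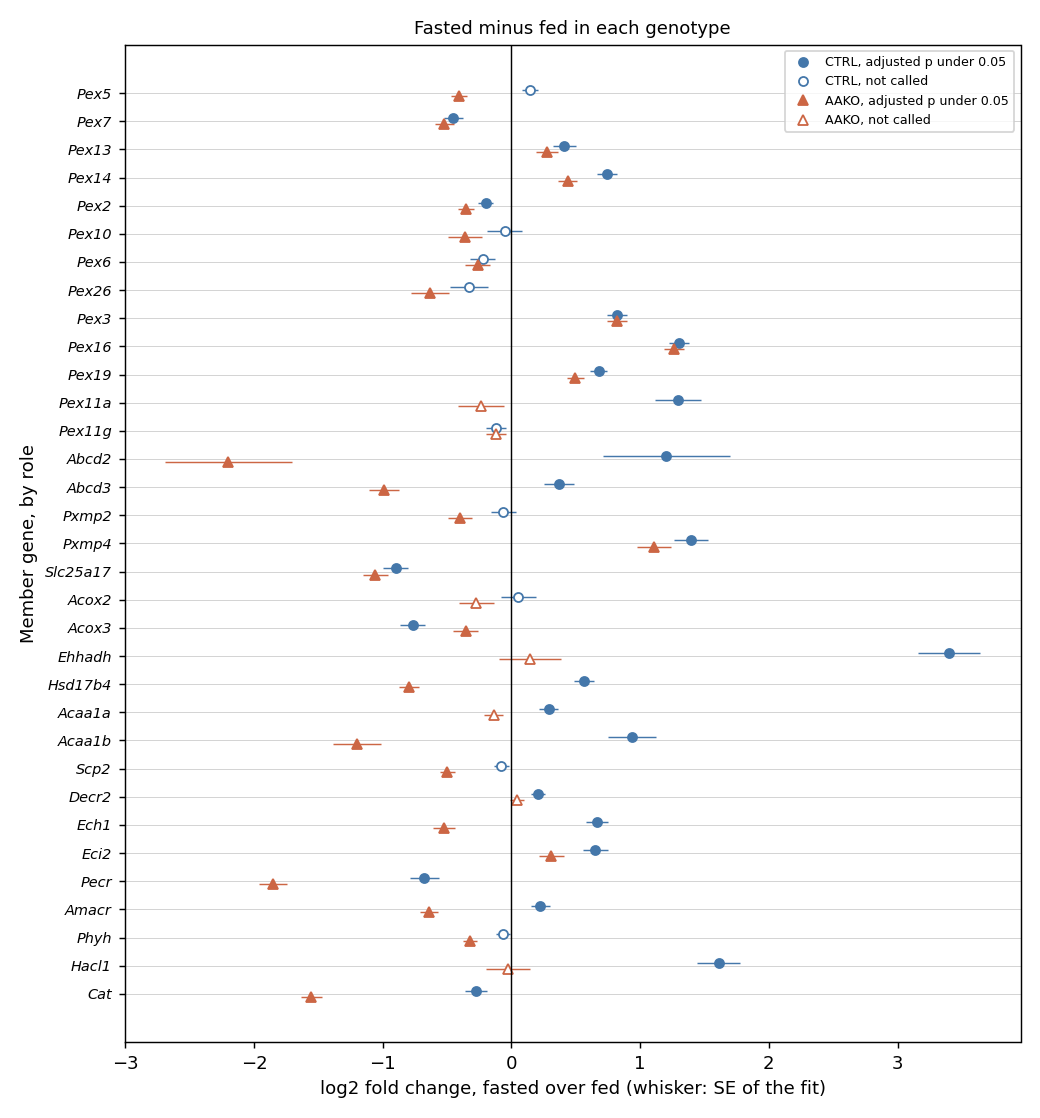
Log2 fold change of fasted over fed mice for each member in CTRL and AAKO livers, with the standard error of the fit as whiskers; filled points are called. Ehhadh lies at 3.40 in CTRL and 0.15 in AAKO, whereas Pex16 lies at 1.30 and 1.26.

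Members called higher in CTRL and lower in AAKO on fasting were Abcd2, Abcd3, Acaa1b, Amacr, Ech1 and Hsd17b4. In CTRL the call for Amacr was lost within wash batches 1 and 2 (0.24 and 0.21, adjusted p 0.146 and 0.102). That for Abcd3 was lost within wash batch 1 (0.25, adjusted p = 0.396), and that for Abcd2 when single arrays were left out, as given above. A further 5, namely Acaa1a, Decr2, Ehhadh, Hacl1 and Pex11a, were called higher in CTRL and not called in AAKO. For Acaa1a and Hacl1 the AAKO value depends on the probe. The first and second probes gave -0.14 and -0.74 for Acaa1a, and -0.03 and 0.50 for Hacl1. Cat, Pecr, Slc25a17, Pex2, Pex7 and Acox3 were called lower in both, although with all probes of a gene averaged the AAKO values turned to 0.033 for Pex2 and 0.36 for Acox3. In CTRL the same averaging gave 0.025 for Pex2 and -0.066 for Acox3, neither called. The difference between the genotypes' responses was tested as an interaction, in which any effect of the experiment shared by both genotypes cancels. The interaction was called for 17 of 33 members, beside 33.6% of all genes. It was lower for 16 members, beside 18.6% of all genes, and higher for 1, beside 15% of all genes. Its values were -3.25 ± 0.338 (adjusted p = 1.52e-08) for Ehhadh, -2.13 ± 0.265 (adjusted p = 2.71e-07) for Acaa1b, -1.64 ± 0.24 (adjusted p = 3.42e-06) for Hacl1 and -1.53 ± 0.25 (adjusted p = 1.63e-05) for Pex11a. Cat and Pecr gave -1.28 ± 0.12 and -1.18 ± 0.154. On fasting the change in Pecr was -0.68 ± 0.109 in CTRL and -1.85 ± 0.109 in AAKO, and that in Cat was -0.28 ± 0.0845 and -1.55 ± 0.0845. The call for Cat in CTRL was lost under quantile normalization (-0.17, adjusted p = 0.0849) and within wash batches 1 and 2 (adjusted p 0.0632 and 0.186). The interaction call for Pex14 was lost when any of 5 single arrays was left out (CTRL fed replicate 2, AAKO fed replicate 5, CTRL fasted replicate 4, and AAKO fasted replicates 2 and 4; adjusted p 0.0501 to 0.0576), and that for Phyh under quantile normalization (-0.22, adjusted p = 0.0598). Without CTRL fasted replicate 2 the interaction was again called lower for 16 members and higher for 1, and the counts were 0 higher and 13 lower within wash batch 1, and 0 higher and 12 lower within wash batch 2.

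CL316243 and fed mice were compared in each genotype. In CTRL, 12 of 33 members were called, beside 23.2% of all genes: 10 were higher, beside 10.5% of all genes, and 2 lower, beside 12.7%. The median was 0.11, beside -0.03 over all genes, and 7 members did not overlap, as did 12.3% of all genes. Abcd2, uncertain in size for the same reason as in fed mice, gave a measured 1.61 ± 0.491, a call that was lost without CTRL fed replicate 3 (1.35, adjusted p = 0.0541). Hacl1 rose by 0.77 ± 0.17, Amacr by 0.70 ± 0.0714, Pex14 by 0.55 ± 0.0768 and Abcd3 by 0.48 ± 0.118. Pxmp4 gave 0.40 ± 0.133, which lost its call without CTRL fed replicate 2 or CTRL CL316243 replicate 4 (adjusted p 0.0566 and 0.0555). Ehhadh gave 0.63 ± 0.239 and was not called (adjusted p = 0.0548). In AAKO, 13 of 33 were called, beside 31.4% of all genes. There 10 were lower, beside 15.9% of all genes, and 3 higher (Pex3, Pex16 and Acox3), beside 15.5%, with a median of -0.15 beside -0.01. Here 6 members did not overlap, as did 14.9% of all genes. Abcd3 fell by 0.62 ± 0.119 and Acaa1b by 0.67 ± 0.188 on the log2 scale. None of the 13 AAKO calls was kept under every alternative. That for Pex16 was lost without AAKO fed replicate 4, 5 or 6 or AAKO CL316243 replicate 2 (adjusted p 0.0572 to 0.0748). That for Pex3 was lost with all probes of the gene averaged (0.18, adjusted p = 0.0861). Among the lower calls, those for Cat, Hsd17b4, Pex11a and Pxmp2 were lost when single arrays were left out. Markers of other cell types were lower than in fed mice: 4 of 7 Kupffer cell and macrophage genes in CTRL and 6 of 7 in AAKO, 5 and 3 of 6 endothelial genes, and 4 of 6 stellate cell and fibroblast genes in each were called lower and none higher. Hepatocyte markers were called lower for 3 of 7 in CTRL and 0 in AAKO, cholangiocyte markers for 1 of 5 in each, lymphocyte markers for 1 and 2 of 5, and neutrophil markers for 0 and 1 of 5. The summed levels of the Kupffer, endothelial and stellate lists after CL316243 were 17.8 to 61.2, 23.8 to 44.7 and 48.1 to 71.9 in CTRL, against 39.9 to 91.1, 46.4 to 68.7 and 73.1 to 99.2 when fed. In AAKO they were 38.3 to 60.3, 35.7 to 52.8 and 52.4 to 83.1, against 64.8 to 111, 56.2 to 68.1 and 76.7 to 94.5. Within wash batch 1 the members' counts were 2 higher and 0 lower in CTRL, and 1 higher and 6 lower in AAKO. Within wash batch 2 they were 5 higher and 1 lower in CTRL, and 1 higher and 1 lower in AAKO.

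**Figure D4:**
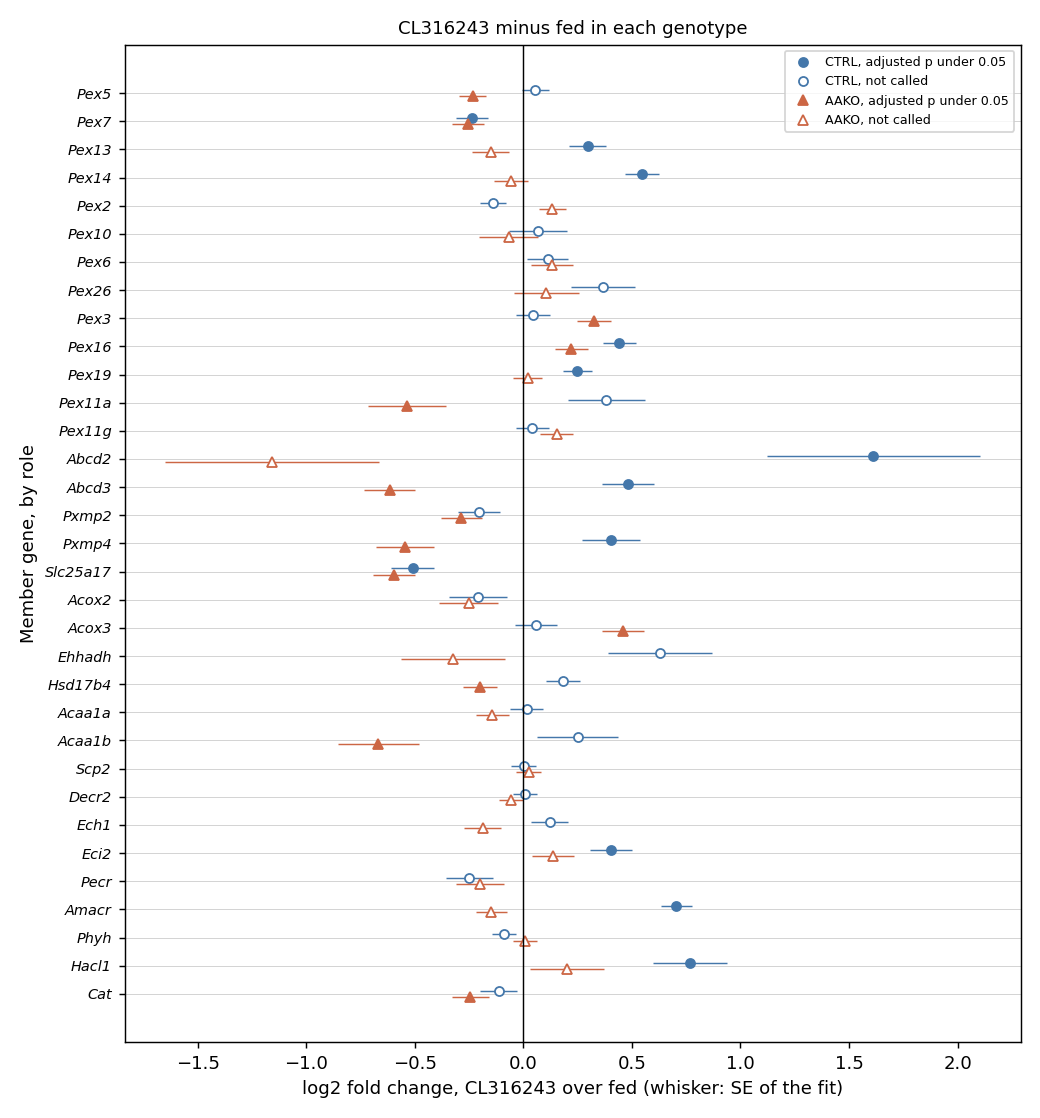
Log2 fold change of CL316243 over fed mice for each member in CTRL and AAKO livers, with the standard error of the fit as whiskers; filled points are called. Amacr lies at 0.70 in CTRL and -0.15 in AAKO, and Slc25a17 lies left of 0 in both genotypes.

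The interaction of genotype with CL316243 was called for 11 of 33 members, beside 10.9% of all genes. It was lower for 10 members, beside 4.64% of all genes, and higher for 1, beside 6.24%. It was -1.10 ± 0.168 (adjusted p = 3.71e-05) for Abcd3, -0.95 ± 0.188 (adjusted p = 0.000855) for Pxmp4, -0.92 ± 0.266 (adjusted p = 0.0213) for Acaa1b, -0.92 ± 0.25 (adjusted p = 0.0142) for Pex11a and -0.85 ± 0.101 (adjusted p = 1.21e-06) for Amacr. Abcd2 gave a measured -2.77 ± 0.696, uncertain in size because CTRL fed arrays lie mostly at background. Pex14, Pex13, Hsd17b4 and Pex5 were also called lower. The second probe of Pxmp4 gave -0.10 and that of Pex13 gave 0.22, against -0.45 for its first, and the call for Pex13 was lost with all probes of a gene averaged (-0.11, adjusted p = 0.775). The calls for Pex5 and Pex2 were lost when any of several single arrays was left out, with adjusted p up to 0.0608 and 0.0756. The counts were 0 higher and 3 lower within wash batch 1, and 0 higher and 3 lower within wash batch 2.

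Fasting and CL316243 were compared directly in control mice, within 1 experiment. Of 33 members 21 were called, beside 37.1% of all genes. In CTRL fasted 14 were higher than in CTRL CL316243, beside 17.8% of all genes, and 7 lower, beside 19.3%, with a median of 0.12 beside -0.02 and 10 members that did not overlap, as did 17.9% of all genes. Without CTRL fasted replicate 2 the counts were 13 higher and 6 lower, and they were 8 higher and 4 lower within wash batch 1, and 13 higher and 5 lower within wash batch 2. Ehhadh was higher in fasted mice by 2.77 ± 0.239 (6.83-fold higher, adjusted p = 1.52e-10), Pxmp4 by 0.99 ± 0.133, Pex11a by 0.91 ± 0.177, Pex16 by 0.86 ± 0.0758, Hacl1 by 0.84 ± 0.17, Pex3 by 0.78 ± 0.0768 and Acaa1b by 0.69 ± 0.187. Amacr was lower in fasted mice, at -0.48 ± 0.0714 (1.39-fold lower, adjusted p = 2.59e-06), and Acox3, Pex26, Pecr, Slc25a17, Pex6 and Pex7 were also called lower. With all probes of a gene averaged, Pex6 turned to 0.10 and Pecr lost its call (-0.24, adjusted p = 0.1645). Pex7 lost its call under quantile normalization (-0.15, adjusted p = 0.0969) and without CTRL fasted replicate 2 (-0.18, adjusted p = 0.0612). Abcd3 gave -0.11 ± 0.118 and was not called. Endothelial markers were called higher in CTRL fasted for 4 of 6, with a sum of 28.7 to 62 against 23.8 to 44.7, and stellate cell and fibroblast markers for 3 of 6, with 1 lower and a sum of 95.3 to 120 against 48.1 to 71.9. Other sums were lower in CTRL fasted without overlap. The cholangiocyte sum was 5.38 to 8.67 against 9.45 to 16.3. The adipocyte sum, which mostly follows Car3, was 9.31 to 26.7 against 151 to 301. Sums of the remaining lists overlapped.

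**Figure D5:**
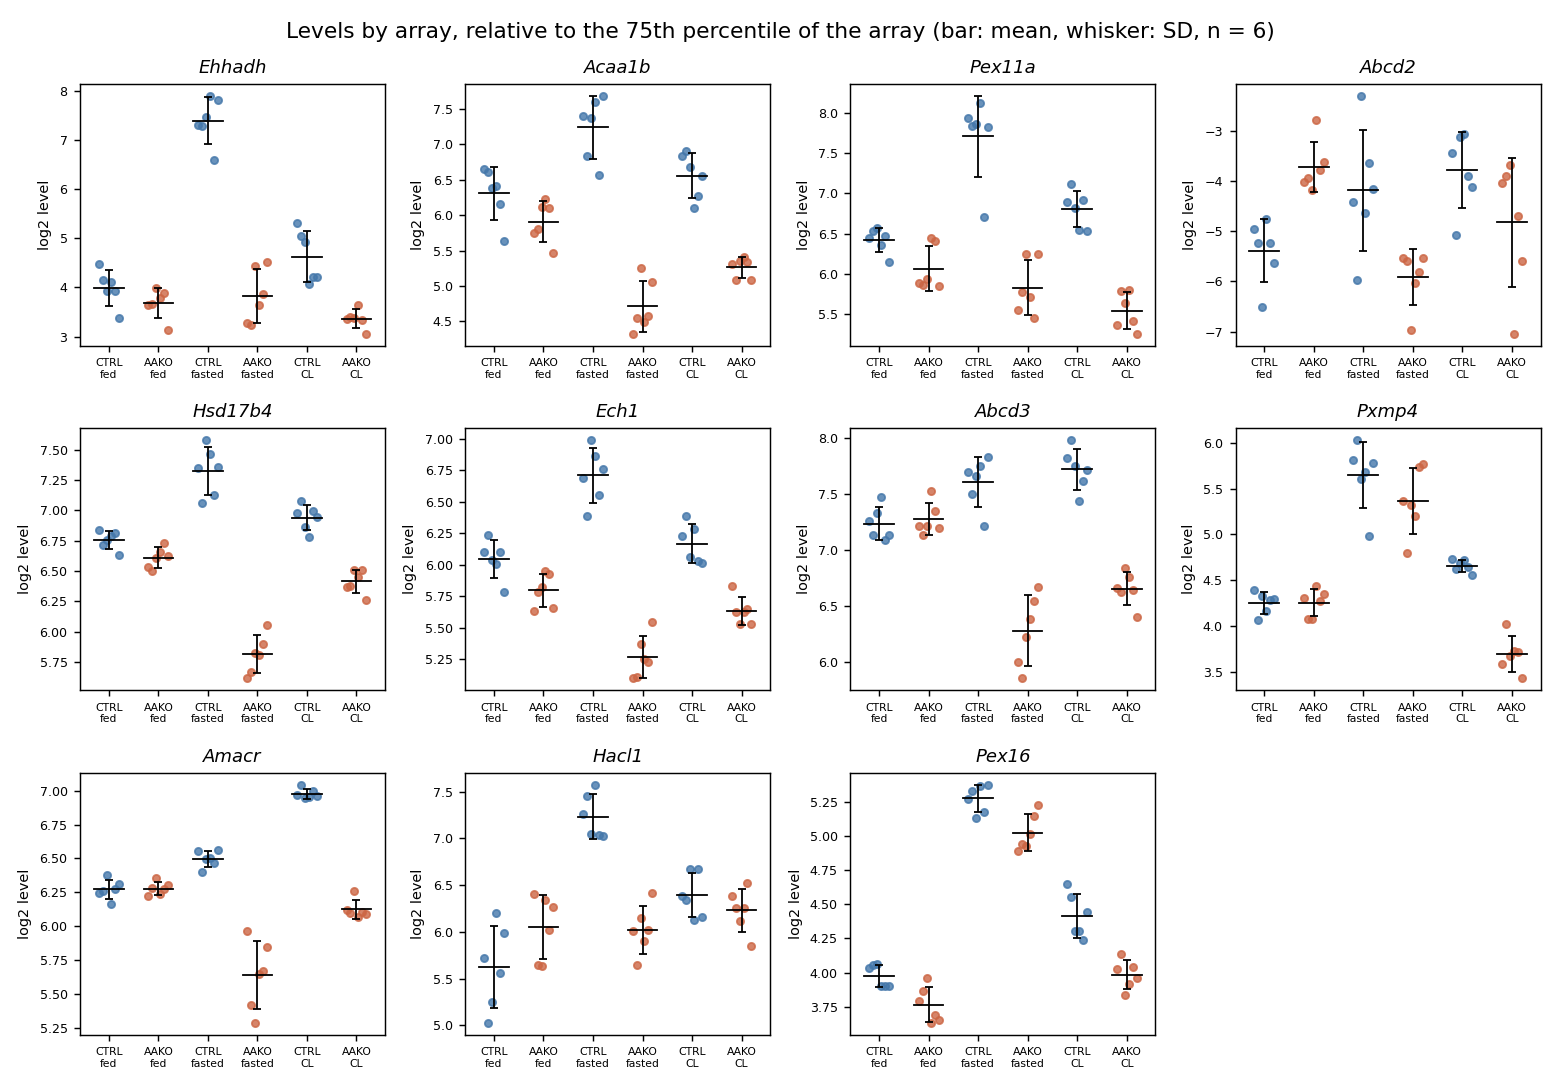
Log2 level on each array for the 11 members named by rule, by group (blue CTRL, orange AAKO; CL stands for CL316243), with the group mean as a bar and the SD as whiskers, n = 6. Ehhadh stands at 7.39 on average in CTRL fasted and at or below 4.62 in the other groups.

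Other peroxisomal genes, taken from lists of the pathway, gave the setting of these values. Of 16 other genes of peroxisomal lipid oxidation, 13 were lower and 3 higher in fasted AAKO livers, with a median of -1.06; over all genes 27.3% were lower and 21.9% higher, with a median of -0.03. Aldh3a2, a fatty aldehyde dehydrogenase, was lower, at -2.88 ± 0.183, as were Acot5 and Acot3 (thioesterases of 1 gene cluster, whose probes may read more than 1 member) at -2.95 ± 0.353 and -2.74 ± 0.541. Nudt7, a hydrolase of coenzyme A, was higher by 1.74 ± 0.138. Of 12 other genes of assembly and division, 8 were lower and 1 higher, with a median of -0.21; Lonp2, the peroxisomal protease, was lower, at -1.74 ± 0.0914 and Acbd5, a tether to the endoplasmic reticulum, at -1.48 ± 0.148, while Mff, a fission factor, was higher at 0.36 ± 0.0780. Of 9 other oxidases and enzymes tested, 6 were lower and 2 higher, with a median of -0.65; Idh1 was lower, at -1.93 ± 0.103 and Agxt, an aminotransferase of glyoxylate, was higher by 1.70 ± 0.113. Of 3 ether lipid synthesis genes tested, Far1, a reductase of fatty acyl-CoA, was lower, at -0.61 ± 0.128, and Gnpat and Agps were at 0.08 ± 0.126 and 0.11 ± 0.0786. Of 22 known targets of PPARα outside peroxisomes, 20 were lower in fasted AAKO livers and 20 after CL316243, none was higher in either, and the medians were -1.40 and -0.85. After CL316243, 11.6% of all genes were lower and 13% higher. Fgf21, a fasting hormone, gave -5.47 ± 0.590 in fasted mice, and Vnn1 gave -4.71 ± 0.240. PPAR receptors and partners, 7 genes, went both ways. In fasted AAKO livers 3 were called higher and 2 lower, with values from -0.60 to 0.95. After CL316243, 1 was called higher and 2 lower, with values from -1.32 to 0.29. Within this list Ppara, the receptor's own gene, was lower in AAKO, at -0.55 ± 0.133 in fasted mice and -1.22 ± 0.134 after CL316243. In CTRL mice on fasting, 12 of the 16 other lipid oxidation genes and 20 of the 22 targets were higher, while 8 of the 9 other oxidases and enzymes were lower and none higher; 19.7% of all genes were higher and 24.1% lower.

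Of the 33 members, 16 have a single probe. Of the others, Pex16, Pex19, Eci2, Phyh and Pxmp4 had a second probe within 0.15 of the first in fasted genotype difference. So did Pex3 for the second of its 3 probes, and Pex6 for each of its other probes. Hacl1 gave -1.21 and -0.98, Pecr -1.32 and -2.02, and Acox2 -0.61 and -0.33, with the same direction. On fasting in AAKO mice the Acox2 probes differed in sign, at -0.27 and 0.36. In fasted genotype difference Pex26 gave -0.25 and -0.05. Probes differed in sign for Pex11g (-0.16, 0.08, 0.04 and -0.20 from brightest to dimmest) and Pex13 (-0.13 and 0.06), neither of them called. They also differed in sign for Pex2 and Acox3, as given above.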

How the data were processed

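RNA abundance was measured on 36 Agilent 1-colour arrays of mouse liver, in 6 groups of 6 taken from the sample titles. Per the labels, 200 ng of total RNA was converted to Cy3-labelled cRNA. The authors deposited the intensity of every spot, obtained with the software Agilent Feature Extraction (version 10.10.1.1 in the submitters' processing notes); the processed intensity is background-subtracted by that software, per the file headers. They also deposited 0 or 1 marks per spot (a category of its own, for outlying, saturated or well above background) and a table of log2 values with no stated normalization, used as an alternative. Its log2 scale and direction match the scanner signal, and how its probes were selected is not given in the sources used here. Probe positions are on mm9.

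From these, log2 processed signals were averaged over the spots of a probe, leaving out 2701 outlying spots (0.127%), and the array's 75th percentile was subtracted. Of 56605 probes, the brightest per gene was used. Genes well above background on at least 5 of 6 arrays of a group were tested with limma 3.58.1 in R 4.3.3, in 1 fit of 6 groups with wash batch as a factor, two-sided, with Benjamini-Hochberg adjustment over 24101 genes. The ± beside a fold change is its standard error from the fit. The number of arrays limits the precision.

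The scripts were tested on simulated data. The members and lists were chosen with earlier results of these data known, so no list count is independent evidence. Array values are given for the called members with the 6 largest genotype differences in fasted mice, the 6 largest after CL316243, the 4 largest fasting interactions and the 4 largest fasting changes in CTRL; those of Acaa1a, Pecr and Cat were added after their values were seen. From each pathway list at most the 3 largest changes per direction are named. Replicate numbers are shared by groups but do not pair samples: over 90 pairs, deviations of same-numbered samples correlated between -0.26 and 0.34, with 7 above 0.1. Alternatives covered background correction, normalization, the authors' log2 table, the dim-probe filter, averaging of probes, wash batch, slide, replicate block, the samples in the fit and leaving out single arrays.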

Additional observations from a re-analysis of the deposited data

Results flagged for a closer look

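Single arrays stood far from the other 5 of their group, by Dixon's criterion on the gap to the nearest array at the 95% level, in 8 of 198 combinations of member and group; chance alone would flag about 1 in 20. Pex5 was lowest in CTRL fasted replicate 2, at 3.54 with the nearest array at 3.82. Pex5 was lowest in CTRL CL316243 replicate 5, at 3.56 with the nearest array at 3.73. Pex11a was lowest in CTRL fasted replicate 5, at 6.71 with the nearest array at 7.82. Pex11g was lowest in AAKO fasted replicate 3, at 4.88 with the nearest array at 5.13. Acox3 was lowest in AAKO fed replicate 4, at 2.17 with the nearest array at 2.56. Abcd2 was lowest in AAKO fasted replicate 3, at -6.97 with the nearest array at -6.04. Amacr was highest in AAKO CL316243 replicate 3, at 6.26 with the nearest array at 6.12. Pxmp2 was lowest in AAKO fasted replicate 3, at 6.42 with the nearest array at 6.71. Of these, 3 are in AAKO fasted replicate 3.

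The genotype difference in log2 level changed between fed and fasted mice, by the interaction test in limma with adjusted p under 0.05, for 17 members. It moved to lower AAKO values in fasted mice, with interactions of -3.25 for Ehhadh, -2.13 for Acaa1b, -1.64 for Hacl1, -1.53 for Pex11a, -1.36 for Abcd3, -1.36 for Hsd17b4, -1.28 for Cat, -1.19 for Ech1, -1.18 for Pecr, -0.86 for Amacr, -0.56 for Pex5, -0.43 for Acaa1a, -0.42 for Scp2, -0.31 for Pex14, -0.26 for Phyh. The second Acaa1a probe gave -1.32 for this interaction. Abcd2 was called lower too, at a measured -3.40 whose size is uncertain. It moved to higher AAKO values at 0.41 for Acox3, a gene whose probes disagree.

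The same test between fed and CL316243-treated mice was passed by 11 members. The difference moved to lower AAKO values after CL316243, with interactions of -1.10 for Abcd3, -0.95 for Pxmp4, -0.92 for Pex11a, -0.92 for Acaa1b, -0.85 for Amacr, -0.60 for Pex14, -0.45 for Pex13, -0.38 for Hsd17b4, -0.29 for Pex5. Abcd2 was called lower at a measured -2.77. It moved to higher AAKO values at 0.27 for Pex2. In both interactions Abcd2 rests on a dim probe: none of 6 AAKO fasted arrays and 1 of 6 CTRL fed arrays was well above background, so neither value is an exact size, and a second probe that was not tested gave -1.26 and -0.17.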

How the results depend on the processing

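Over the alternatives, the number of members called stayed within 1.5 times the reported count for every comparison, except within single wash batches. There, calls fell to 2 (batch 1) and 6 (batch 2) from 12 for CL316243 against fed in CTRL, to 7 and 2 from 13 in AAKO, and to 3 and 3 from 11 for the interaction of genotype with CL316243. Fasted against CL316243 in CTRL fell to 12 from 21 in batch 1, and AAKO against CTRL after CL316243 to 12 from 20 in batch 2; these fits use fewer arrays. Leaving out single arrays gave 0 to 0 calls for genotype in fed mice, 27 to 29 in fasted mice and 17 to 20 after CL316243. It gave 23 to 25 for fasting in CTRL, 25 to 27 in AAKO, 11 to 14 for CL316243 in CTRL, 10 to 13 in AAKO, 19 to 21 for fasted against CL316243, 16 to 20 for the fasting interaction and 9 to 12 for the CL316243 interaction. With the replicate block, which the data do not bear out as a pairing, the counts were 0, 27, 18, 23, 26, 12, 12, 20, 18 and 11 in that order. Averaging all probes of a gene turned 4 called values: Pex2 to 0.025 on fasting in CTRL and 0.033 in AAKO, Acox3 to 0.36 on fasting in AAKO, and Pex6 to 0.10 for fasted against CL316243 in CTRL, where probes of a gene disagree. Of the 171 called member values, 16 of 27 for genotype in fasted mice kept their call under every alternative, as did 11 of 20 after CL316243, 16 of 24 for fasting in CTRL, 18 of 26 in AAKO, 2 of 12 for CL316243 in CTRL, 0 of 13 in AAKO, 10 of 21 for fasted against CL316243, 11 of 17 for the fasting interaction and 2 of 11 for the CL316243 interaction. Signal near background limits Abcd2.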
